A study of Mus musculus with 18 samples.

Results

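The kinetochore and spindle checkpoint genes comprised 42 protein-coding genes, chosen by symbol from the lists of proteins that build the mouse kinetochore, signal from it or correct its attachments to microtubules, and all 42 of them were found among the 50600 genes of the unfiltered tables. Oxidative stress was modelled in neural stem cells (NSCs) cultured from the dentate gyrus of adult C57Bl6J mice aged 6 to 9 weeks, used at passage 6 to 15 and kept dividing with epidermal and basic fibroblast growth factor. Cells were exposed for 24 h to 500 µM H2O2 or to vehicle. The vehicle was water in the sample labels and phosphate buffered saline in the study's methods. H2O2 and vehicle RNA of 3 cultures (F5, F8 and M9) was sequenced at an input of 1 ng and after dilution to 100 pg and to 10 pg, which gave 18 libraries in 6 groups of 3. By the study's account the cells came from 1 line of pooled male mice and 1 line of pooled female mice. It describes 1 replicate per treatment as male and the others as female, so F5 and F8 may be cultures of the same line. The 3 inputs of a culture were dilutions of the same RNA, and they repeat the library preparation and not the exposure. In bulk RNA of this kind, fewer cells in mitosis and less RNA of these genes per cell cannot be told apart.

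The kinetochore is the protein machine that is built on the centromere of each chromosome and captures spindle microtubules in mitosis. Its inner layer recognizes centromeric chromatin, its outer layer grips the microtubule, and an unattached kinetochore sends a checkpoint signal that blocks the anaphase-promoting complex until every chromosome is attached. The chromosomal passenger complex releases faulty attachments, and many of these genes are transcribed mainly late in the cell cycle. In the dentate gyrus, division of neural stem and progenitor cells supplies new neurons throughout adult life.

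The unfiltered libraries held 10032628 to 11946931 reads at 1 ng, 10891411 to 13051643 at 100 pg and 10850553 to 12362510 at 10 pg. The CLEAR tables, which the study restricted to genes it regarded as reliably quantified, held 42 of the 42 genes at an input of 1 ng. They held 38 at 100 pg and 14 at the lowest input. Values are normalized read counts, which are comparable between the 6 libraries of an input. Of the 6 neural stem and progenitor markers Nes, Vim and Fabp7 were high (Nes at 15567 to 18409 in H2O2 and 15124 to 19986 in vehicle libraries at 1 ng). The others were low at 1 ng, with Sox2 at 75.9 to 121 in H2O2 and 78.9 to 90.2 in vehicle libraries. Hes1 was at 72.4 to 87.5 in H2O2 and 42.6 to 94.6 in vehicle libraries, and Msi1 at 12.1 to 21.1 and 11.5 to 23.4. In the 100 pg libraries Sox2 was higher, at 425 to 750 in H2O2 and 199 to 422 in vehicle, as was Hes1, at 296 to 483 and 282 to 425. In those of 10 pg Sox2 was at 47.1 to 94.9 and 1.70 to 127, and Hes1 at 5.56 to 25.7 and 4.42 to 15.1. The summed level of the 6 markers at 1 ng was 45929 to 52648 in H2O2 and 40128 to 47994 in vehicle libraries. Vim was higher after H2O2 (log2 fold change 0.63, SE 0.15, adjusted p = 0.0355). Summed microglial markers (5 genes) reached 152 to 169 in H2O2 and 115 to 131 in vehicle libraries, while Aif1 was at 0 in 3 of 3 H2O2 libraries. Csf1r, held only by the unfiltered tables, gave most, at 131 to 141 in H2O2 and 91.4 to 108 in vehicle libraries without overlap. Its groups overlapped at 100 pg (109 to 165 in H2O2 and 117 to 156 in vehicle libraries) and at 10 pg (0 to 164 and 49.5 to 178). Summed endothelial and pericyte markers (5 genes) at 1 ng were at 8.18 to 45.9 in H2O2 and 3.18 to 19.0 in vehicle libraries. Summed neuronal markers (5 genes) were at 109 to 306 and at 111 to 169.8. Summed astrocyte markers (5 genes) were at 2607 to 3421 in H2O2 and 2042 to 2807 in vehicle libraries. Of these Gfap had 67.4 to 139.8 in H2O2 and 28.9 to 52.2 in vehicle libraries (log2 fold change 1.07, SE 0.37, adjusted p = 0.0910, and 0.0427 with the culture as a block). Summed oligodendrocyte lineage markers (6 genes) were at 24318 to 27246 in H2O2 and 27548 to 29017 in vehicle libraries, nearly all of it Olig1, while Sox10 was at 0 in all 6 libraries. The part of other cell types in the results below was not tested.

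At 1 ng, kinetochore and checkpoint genes fell after H2O2, with at least 1 gene past the limma test in each of the 6 layers. For the chromosomal passenger complex that was Aurkb alone, and edgeR called 0 of its 4 genes. Of 42 genes 24 fell and 0 rose (limma, adjusted p under 0.05), where 7.11% of all 13692 tested genes fell and 5.57% rose. The median log2 fold change of the 42 genes was −1.94, against 0.02 over all tested genes, and 40 of the 42 were negative. The 3 H2O2 libraries lay below the 3 vehicle libraries without overlap for 39 of the 42 genes, which held for 19.7% of all tested genes. The 3 genes whose groups overlapped were Cenpt, Zwint and Mad1l1. With the culture as a block 37 of 42 genes fell (9.87% of all tested genes), and DESeq2 on the recovered reads called 32 lower (10.7%).

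The H2O2 library of F5 was the lowest of the 6 for most of these genes, and it carried much of the spread. Without it 37 of 42 genes fell (7.22% of 13652 tested genes), with a smaller median log2 fold change of −1.29. When H2O2 F8 was left out 5 genes fell, among 392 of 13674 tested genes. When any 1 of the vehicle libraries was left out 0 of the 42 genes passed, as did 0 of all genes.

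**Figure D1:**
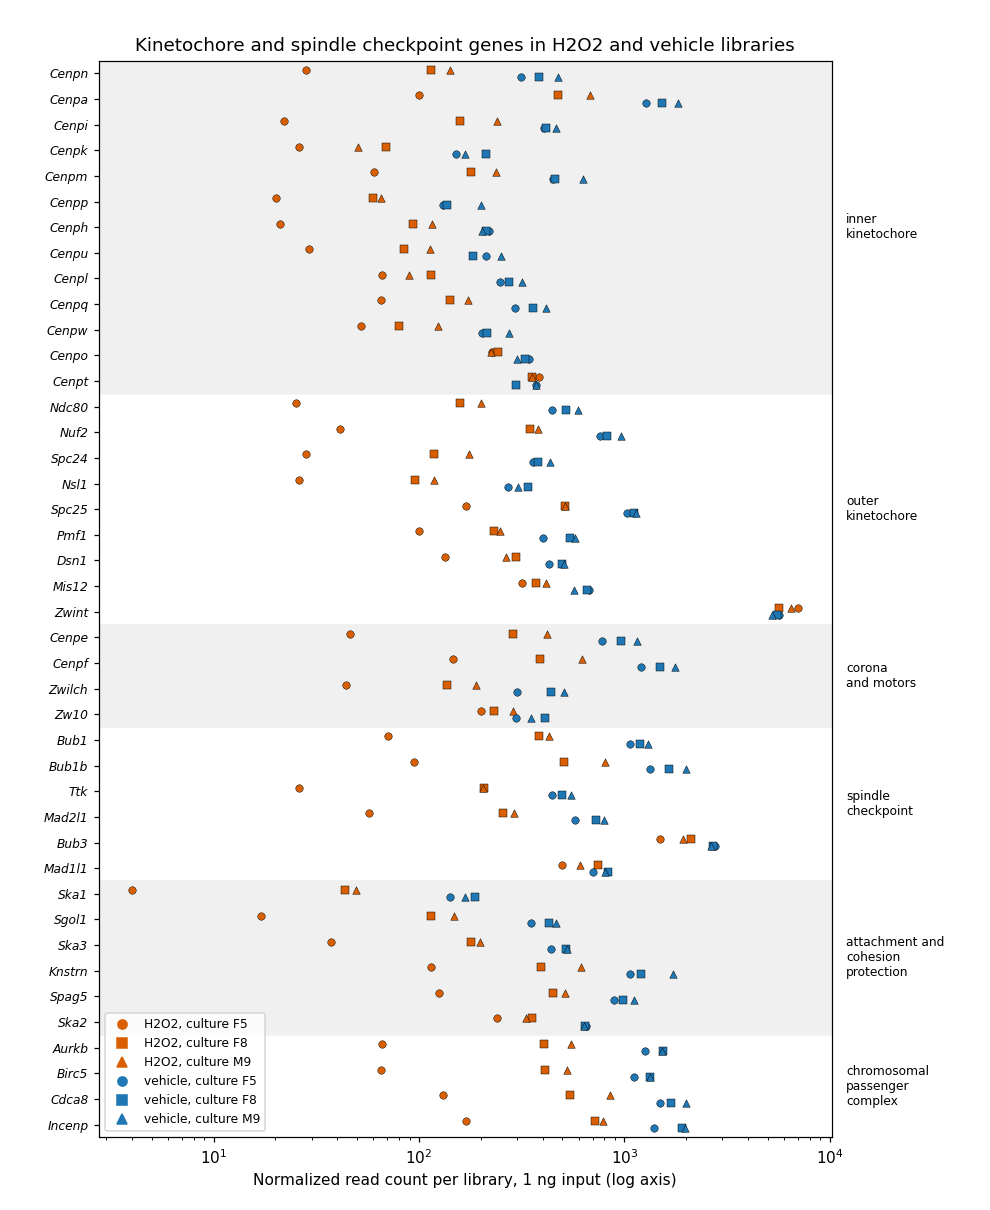
Normalized read count (log axis) of the 42 genes in each of the 6 libraries of 1 ng input, with H2O2 in orange and vehicle in blue, symbols for the 3 cultures and grey bands for alternate layers. The orange circle of H2O2 F5 stands far to the left in most rows, while Cenpt, Zwint and Mad1l1 have overlapping groups.

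The inner kinetochore, or constitutive centromere-associated network, was measured with 13 genes, of which 8 fell, 0 rose and 5 did not pass the test (10 fell with the culture as a block). Their median log2 fold change was −1.76. Cenpa (chromosome 5, 30666777 to 30674830, plus strand, GRCm38), the histone H3 variant that marks the centromere, had 101, 474 and 681 normalized counts in H2O2 libraries of F5, F8 and M9, against 1280.3, 1533 and 1826 in vehicle libraries. The groups did not overlap and H2O2 F5 was the lowest library, with a log2 fold change of −2.26 (SE 0.62, adjusted p = 0.0512, and 0.0203 with the culture as a block). Cenpn, which binds the CENP-A nucleosome, fell by 2.30 on the log2 scale (SE 0.55, adjusted p = 0.0381), to 95.1 ± 59.6 in H2O2 libraries against 390.2 ± 81.0 in vehicle libraries (SD, n = 3 each). Its partner in that binding, Cenpl, fell by 1.65 (SE 0.23, adjusted p = 0.0192), the smallest adjusted p among the 42 genes, and was spread less in H2O2 libraries (66.4 to 114) than most of the others.

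The 4 genes of the CENP-H, I, K and M complex had like fold changes but passed unevenly. Cenpk fell by 1.93 (adjusted p = 0.0254) and Cenpm fell by 1.88 (adjusted p = 0.0400). Cenph had a log2 fold change of −1.76 (SE 0.57, adjusted p = 0.0760, and 0.0505 with the block) and Cenpi of −2.16 (SE 0.76, adjusted p = 0.0961, and 0.0494 with the block). Both had their lowest value in H2O2 F5, at 21.1 and 22.1. In the CENP-O, P, Q and U complex, Cenpq fell by 1.59 (adjusted p = 0.0323) and Cenpp fell by 1.81 (adjusted p = 0.0411), and Cenpu had −1.69 (SE 0.46, adjusted p = 0.0507, and 0.0293 with the block).

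Cenpo, of the same complex, moved far less than its partners. It had 227, 242 and 225 normalized counts in H2O2 libraries, against 344, 329 and 299.5 in vehicle libraries. The groups did not overlap and no H2O2 library stood apart, with a fall of 0.48 on the log2 scale (SE 0.13, adjusted p = 0.0491, and 0.0545 with the block). Exons of Adcy3 and Ptrhd1 on the other strand cover 22.5% of its exon bases, and as counting ignored strand their reads cannot be told apart from those of Cenpo. The same holds for 13 of the 42 genes (0.219% to 26.7% of exon bases), most of all for Cenpu, where Primpol covers 26.7%, then Cenpp with 12.6% and Ska2 with 10.1%.

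Cenpt and Cenpw encode histone-fold partners that bind DNA at the centromere, and they differed. Cenpw fell by 1.49 (SE 0.31, adjusted p = 0.0306), to 85.3 ± 35.7 in H2O2 libraries against 230.1 ± 37.7 in vehicle libraries (SD, n = 3 each). Cenpt, which also recruits the NDC80 complex, had 384, 356 and 354 normalized counts in H2O2 libraries, against 369.6, 295 and 373 in vehicle libraries. The groups overlapped throughout, H2O2 F5 was the highest library of all, and the log2 fold change was 0.08 (SE 0.14, adjusted p = 0.713).

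The outer kinetochore was measured with 9 genes, of which 6 fell, 0 rose and 3 did not pass the test (8 fell with the block). The NDC80 complex, the main microtubule-binding rod, was measured with its 4 subunit genes, of which Spc24 and Spc25 fell and Ndc80 and Nuf2 did not pass the test. Ndc80 (chromosome 17, 71496100 to 71526857, minus strand) had 25.1, 158 and 201 normalized counts in H2O2 libraries, against 446, 520.5 and 596 in vehicle libraries. The groups were far apart, with H2O2 F5 lowest, at a log2 fold change of −2.46 (SE 0.68, adjusted p = 0.0532, and 0.0236 with the block).

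Spc25, the most abundant subunit, had 169, 514 and 515 in H2O2 libraries, against 1027, 1110.3 and 1139.5 in vehicle libraries. H2O2 F8 and M9 were nearly equal and F5 was far below them, and the gene fell by 1.62 (SE 0.39, adjusted p = 0.0399). Spc24 fell by 2.21 (adjusted p = 0.0473), and Nuf2 had −2.25 (SE 0.75, adjusted p = 0.0840, and 0.0388 with the block). Of the MIS12 complex, which joins NDC80 to the inner layer, 4 of 4 genes fell, but by unequal amounts. The log2 fold change was −2.17 for Nsl1 (SE 0.51), −1.48 for Pmf1 (SE 0.34), −1.11 for Dsn1 (SE 0.28) and −0.78 for Mis12 (SE 0.14).

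Zwint encodes a kinetochore protein that binds KNL1 and ZW10, and in rat brain it is also known as a partner of the synaptic protein SNAP-25. It was the most abundant of the 42 genes and did not follow the rest of its layer. It had 7031, 5666 and 6473 normalized counts in H2O2 libraries, against 5674, 5528 and 5227 in vehicle libraries. The lowest H2O2 library lay inside the vehicle range and H2O2 F5 was the highest library, with a log2 fold change of 0.22 (SE 0.10, adjusted p = 0.182).

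The corona and motor genes numbered 4, of which 2 fell and 2 did not pass the test (4 fell with the block). Cenpf, a large corona protein that tethers dynein regulators, had 146, 388 and 619.5 normalized counts in H2O2 libraries, against 1205, 1487 and 1774 in vehicle libraries. Cenpe, the kinesin that carries chromosomes to the spindle equator, had 46.3, 287 and 419 in H2O2 libraries, against 776, 958 and 1157 in vehicle libraries. For both genes H2O2 F5 was the lowest library and the groups did not overlap. Cenpf fell by 2.16 (SE 0.46, adjusted p = 0.0310), while Cenpe had −2.41 (SE 0.71, adjusted p = 0.0619, and 0.0235 with the block).

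Zwilch and Zw10 are subunits of the RZZ complex, the scaffold of the corona. Zwilch fell by 1.94 (SE 0.50, adjusted p = 0.0445). Zw10, which also acts in membrane traffic between Golgi and endoplasmic reticulum, had 200.2, 233 and 286 in H2O2 libraries, against 298, 409 and 353 in vehicle libraries. Its groups were separate but close, with a log2 fold change of −0.56 (SE 0.18, adjusted p = 0.0799, and 0.0499 with the block).

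Of the 6 spindle checkpoint genes 3 fell, 0 rose and 3 did not pass the test (5 fell with the block). Bub1b (chromosome 2, 118598211 to 118641591, plus strand), which encodes BUBR1 of the mitotic checkpoint complex, had 94.6, 511 and 805 normalized counts in H2O2 libraries, against 1335, 1657 and 1986 in vehicle libraries. The groups did not overlap, and the wide H2O2 group left the log2 fold change of −2.27 (SE 0.68) at an adjusted p of 0.0651, and at 0.0238 with the block. Bub3, its partner that docks on phosphorylated KNL1, had 1493, 2115 and 1921 in H2O2 libraries, against 2774, 2717 and 2634 in vehicle libraries. Bub3 thus fell by 0.57 (SE 0.13, adjusted p = 0.0350), a smaller change with a narrower spread.

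The checkpoint kinase gene Bub1 fell by 2.38 (SE 0.61), and Mad2l1, which encodes the inhibitor MAD2 that binds CDC20, fell by 2.08 (SE 0.55, adjusted p = 0.0481). Ttk, the kinase MPS1 that starts checkpoint signalling, had −2.24 (SE 0.71, adjusted p = 0.0745, and 0.0359 with the block). Mad1l1, which encodes the MAD1 platform that holds MAD2 at unattached kinetochores, had 498, 740.4 and 610.0 in H2O2 libraries, against 702, 829 and 808 in vehicle libraries. H2O2 F8 lay inside the vehicle range, and the log2 fold change was −0.35 (SE 0.16, adjusted p = 0.166).

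The attachment and cohesion protection genes numbered 6, of which 4 fell and 2 did not pass the test (6 fell with the block). Sgol1 (annotated as Sgo1 on chromosome 17, 53674786 to 53689333, minus strand) encodes shugoshin, which protects centromeric cohesin until anaphase. It had 17.1, 115 and 148 normalized counts in H2O2 libraries, against 351, 430.1 and 467 in vehicle libraries. The lowest vehicle library was above every H2O2 library, and the gene fell by 2.61 (SE 0.71, adjusted p = 0.0497).

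The SKA complex follows the tips of shortening microtubules, and of its 3 genes Ska2 and Ska3 fell while Ska1 did not pass the test. Ska1 had 4.02, 43.7 and 49.5 normalized counts in H2O2 libraries, against 142, 188 and 167 in vehicle libraries. Its fold change was the most negative of the 42 genes and rested on few reads in H2O2 F5, at −2.88 (SE 0.81, adjusted p = 0.0540, and 0.0264 with the block). Ska3 fell by 2.15 (SE 0.57, adjusted p = 0.0476). Ska2 fell by 1.07 (SE 0.16, adjusted p = 0.0201), and its vehicle libraries were almost equal (642 ± 6.91, SD, n = 3) against 310.1 ± 61.3 in H2O2 libraries.

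Spag5 and Knstrn encode astrin and its small partner, which stabilize attachments once they are correct. Spag5 had 125, 448 and 515 in H2O2 libraries, against 890.4, 982 and 1118 in vehicle libraries. Knstrn had 115, 394 and 612 in H2O2 libraries, against 1059.8, 1202 and 1717 in vehicle libraries. Neither gene had overlapping groups. Knstrn fell by 2.097 (SE 0.54, adjusted p = 0.0456), while Spag5 had −1.69 (SE 0.48, adjusted p = 0.0551, and 0.0241 with the block).

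Of the 4 chromosomal passenger complex genes 1 fell and 3 lay just above the threshold (adjusted p = 0.0525 to 0.0576), and all 4 fell with the block. Aurkb (chromosome 11, 69045647 to 69051664, plus strand), the kinase of the complex, had 66.4, 408 and 550.0 normalized counts in H2O2 libraries, against 1255, 1541 and 1520.5 in vehicle libraries. H2O2 F5 was far below every other library. The log2 fold change of Aurkb was −2.53 (SE 0.69, adjusted p = 0.04996 by limma and 0.0509 by edgeR). Incenp, the scaffold, had 170.0, 720.0 and 791 in H2O2 libraries, against 1396, 1909.7 and 1980.3 in vehicle libraries. Cdca8, which encodes borealin, had 131, 541 and 850.3 in H2O2 libraries, against 1493, 1695 and 1988 in vehicle libraries. The groups of both genes were separate, and H2O2 F5 was again the lowest library. Incenp had a log2 fold change of −1.92 (SE 0.53), Cdca8 of −2.12 (SE 0.59) and Birc5, which encodes survivin, of −2.37 (SE 0.68).

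The spread around these fold changes lay in the H2O2 group. The median SD over the 42 genes was 1.14 on the log2 scale in H2O2 libraries and 0.196 in vehicle libraries, whereas over all tested genes it was 0.235 in H2O2 and 0.175 in vehicle libraries. Within cultures, H2O2 over vehicle on the log2(normalized count + 1) scale had a median over the 42 genes of −3.03 for culture F5, of −1.40 for F8 and of −1.33 for M9. All 3 cultures had a lower value after H2O2 for 40 of the 42 genes, and F5 had the largest fall for 39. Values below −1 were counted for 36 genes in F5, for 33 in F8 and for 31 in M9, against 10.1%, 5.95% and 5.04% of all tested genes in the same cultures. Layer medians in F5 ran from −2.60 for the outer kinetochore to −3.79 for the chromosomal passenger complex, while in F8 they lay between −1.22 and −1.71 and in M9 between −1.22 and −1.44. Differences between layers were not tested.

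**Figure D2:**
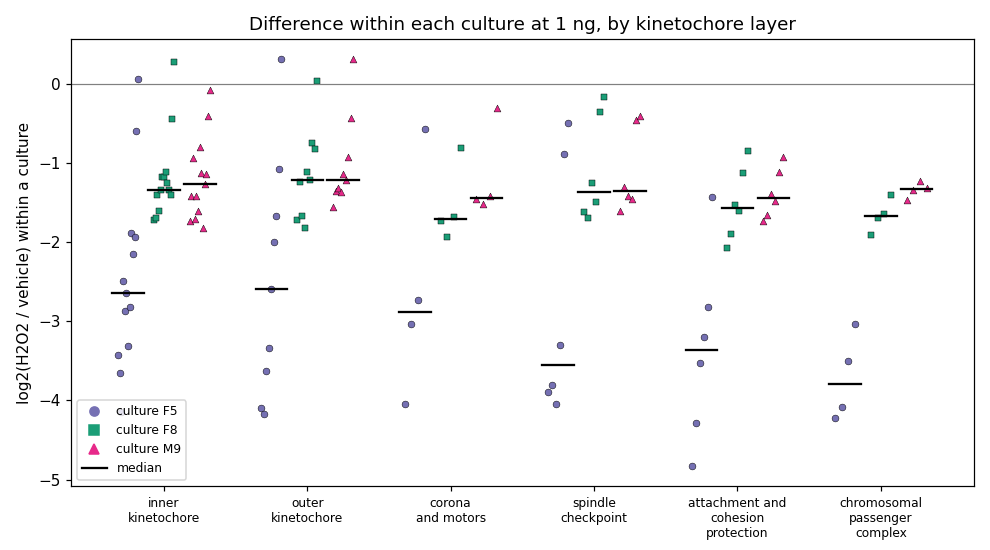
Log2 of H2O2 over vehicle within each culture at 1 ng for the 42 genes (points), by layer, with the median of each culture and layer as a bar. Bars of F5 lie between −2.60 and −3.79, and bars of F8 and M9 between −1.22 and −1.71.

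Relative levels of the genes were compared as normalized counts per kb of exon, with all annotated exons of a gene merged. The merged length can exceed that of the transcript present (5860 bases for Cenpa, 2946 for Aurkb), so the order between genes depends in part on the annotation. Zwint had the highest level in both groups, with 1441 ± 155 per kb in H2O2 libraries and 1235 ± 51.4 in vehicle libraries (SD, n = 3 each). In vehicle libraries Aurkb (488 ± 54.2), Incenp (407 ± 73.6), Bub1b (388 ± 76.2), Bub3 (387 ± 9.98) and Birc5 (371 ± 36.5) came next, and neighbours in this order did not differ beyond their spread. The lowest was Cenpk, with 9.30 ± 4.12 per kb in H2O2 libraries and 33.8 ± 6.09 in vehicle libraries. The order differed between groups, as Mad1l1 ranked 3 in H2O2 and 13 in vehicle libraries, Cenpt 9 and 30, and Zw10 19 and 31, while Aurkb ranked 7 in H2O2 and 2 in vehicle libraries.

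Promoters of these genes were examined because many late cell cycle genes carry the cell cycle genes homology region (CHR, TTTGAA), which binds the DREAM and MuvB complexes, and the CCAAT box of NF-Y. RefSeq promoter windows of GRCm38.p6, from 250 bases before to 50 after the start, were matched for 36 of the 42 genes. The members were counted per gene and the background per window, which are unlike units, as Cenpk had 3 windows and Bub3 and Mad1l1 had 2 each. On either strand TTTGAA was present in 15 of 36 (41.7%), against 17.9% of all 32851 promoter windows, and CCAAT in 24 of 36 (66.7%), against 37.4%. Both were present in 12 of 36 genes (33.3%), against 6.95% of all windows. The E2F letters TTTCCCGC, TTTGGCGC or TTTCGCGC were present in 3 of 36 (8.33%; Cenpl, Cenpm and Dsn1), against 1.84%. The median log2 fold change at 1 ng was −2.12 for the 15 genes with TTTGAA and −1.81 for the 21 without it, with ranges of −2.46 to −0.56 and −2.61 to 0.22. The windows of Ndc80 and Cenpn, which had the most negative fold changes among the genes with TTTGAA, and of Zw10, which had the least negative, are printed 5′ to 3′ on the strand of the gene, with TTTGAA and CCAAT or their reverse complements TTCAAA and ATTGG in capitals.
Ndc80 (chr17:71526808-71527107, minus strand): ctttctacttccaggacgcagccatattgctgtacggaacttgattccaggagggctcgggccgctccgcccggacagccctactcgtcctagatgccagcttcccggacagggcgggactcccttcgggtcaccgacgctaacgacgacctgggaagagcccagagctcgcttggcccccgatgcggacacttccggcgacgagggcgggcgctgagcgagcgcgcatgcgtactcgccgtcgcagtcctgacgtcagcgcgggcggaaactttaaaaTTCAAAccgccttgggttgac
Cenpn (chr8:116921490-116921789, plus strand): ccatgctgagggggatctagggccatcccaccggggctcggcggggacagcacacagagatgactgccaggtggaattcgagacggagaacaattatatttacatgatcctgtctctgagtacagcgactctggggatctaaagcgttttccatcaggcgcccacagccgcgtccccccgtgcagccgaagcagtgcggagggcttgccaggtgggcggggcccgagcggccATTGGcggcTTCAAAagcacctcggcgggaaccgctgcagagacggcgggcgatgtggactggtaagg
Zw10 (chr9:49055331-49055630, plus strand): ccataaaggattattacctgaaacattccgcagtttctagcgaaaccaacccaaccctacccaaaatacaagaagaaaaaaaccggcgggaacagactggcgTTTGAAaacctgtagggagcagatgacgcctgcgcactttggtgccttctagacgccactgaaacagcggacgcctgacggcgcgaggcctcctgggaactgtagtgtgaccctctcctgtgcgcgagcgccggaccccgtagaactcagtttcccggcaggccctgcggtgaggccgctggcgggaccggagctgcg
The letters lie at different distances from the start. TTCAAA begins 30 bases after the start in Ndc80 and 9 bases before it in Cenpn, where ATTGG begins 18 bases before it. In Zw10 TTTGAA begins 148 bases before the start. A match of letters is a description and not a bound site.

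In 3 lists of other genes of the same processes some genes fell and 0 rose at 1 ng, where 7.11% of all tested genes fell (9.87% with the block). Of 22 further kinetochore and centromere genes 20 were tested, 6 fell and 0 rose, with a median log2 fold change of −1.65 (14 fell with the block). Hjurp, the chaperone that loads CENP-A, fell by 1.17 (SE 0.23, adjusted p = 0.0273), to 1361 ± 423 in H2O2 libraries against 2957 ± 331 in vehicle libraries (SD, n = 3 each). Gsg2, the histone kinase haspin that recruits the passenger complex, fell by 2.09 (SE 0.42). Mis18a, which prepares centromeres for CENP-A loading, fell by 1.43 (SE 0.30).

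Of 25 genes of the anaphase-promoting complex and its regulators and targets 9 fell and 0 rose, with a median of −0.47 (15 fell with the block). The subunit genes Anapc5 and Anapc1 fell, with log2 fold changes of −0.51 (SE 0.09, adjusted p = 0.0220) and −0.42 (SE 0.09). The ubiquitin-conjugating enzyme gene Ube2s fell by 1.00 (SE 0.17), and Espl1, which encodes the cohesin-cleaving protease separase, fell by 2.44 (SE 0.51, adjusted p = 0.0309). Of 14 cohesin genes 7 fell and 0 rose, with a median of −0.38 (7 fell with the block). The ring genes Smc1a, Smc3 and Rad21 fell, by a log2 fold change of −0.61 for Smc1a (SE 0.12), −0.51 for Smc3 (SE 0.12) and −1.22 for Rad21 (SE 0.25), and the ring regulator gene Pds5a fell by 0.53 (SE 0.11). At 100 pg 2 of 18 further kinetochore genes (Kif2c and Kif18a), 2 of 25 genes of the anaphase-promoting complex list (Fbxo5 and Espl1) and 0 of 14 cohesin genes fell, where 0.846% of all tested genes did. At 10 pg the counts were 0 of 6, 0 of 22 and 0 of 10, as limma called 0.0% of all tested genes there.

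At 100 pg the direction was the same, and few genes passed the test. Of 38 genes 2 fell and 0 rose, where 0.846% of 12171 tested genes fell and 0.666% rose. The median log2 fold change was −1.88, against 0.01 over all tested genes, 37 of 38 were negative and the groups did not overlap for 33 of 38 (14.1% of all tested genes). With the culture as a block 15 genes fell (2.29% of all tested genes), DESeq2 called 21 lower (5.01%), and without the H2O2 library of F5 13 fell (1.54% of 12139 tested genes). When H2O2 M9 was left out 10 genes fell, among 205 of 12131 tested genes. When H2O2 F8 or any 1 vehicle library was left out the count was 0, as it was over all tested genes.

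The 2 genes that fell at 100 pg were Cenpq, with a log2 fold change of −2.25 (SE 0.34, adjusted p = 0.0367), and Cenpn, with −2.105 (SE 0.41, adjusted p = 0.0488). Cenpq had 61.4, 108 and 117 normalized counts in H2O2 libraries of F5, F8 and M9, against 423, 377 and 539 in vehicle libraries. Cenpn had 60.3, 142 and 182 in H2O2 libraries, against 566, 495 and 452 in vehicle libraries. In both genes H2O2 F5 was the lowest library and the groups were far apart.

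Zwint had 7979.9, 6399 and 6913 normalized counts at 100 pg in H2O2 libraries, against 7194, 6130.1 and 5967 in vehicle libraries, which overlapped. Bub3 had 1857, 2438 and 1750.4 in H2O2 libraries, against 2931, 2492 and 2783 in vehicle libraries. Its groups were separate by a small margin between H2O2 F8 and vehicle F8, with a log2 fold change of −0.45 (SE 0.15, adjusted p = 0.144). Spc25 had 241, 537 and 681 in H2O2 libraries, against 1072, 1397 and 1337 in vehicle libraries.

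The passenger complex genes again had separate groups with H2O2 F5 lowest. Cdca8 had 167, 712 and 912 in H2O2 libraries, against 1849, 1903 and 2746 in vehicle libraries (log2 fold change −2.16, SE 0.54, adjusted p = 0.0772). Incenp had 196, 781 and 763 in H2O2 libraries, against 1776, 1902 and 1814 in vehicle libraries (−1.90, SE 0.46, adjusted p = 0.0722). Aurkb had 111, 552 and 936 in H2O2 libraries, against 1294, 1849 and 1993 in vehicle libraries (−2.12, SE 0.65, adjusted p = 0.116). With the block these 3 genes fell (adjusted p = 0.0329, 0.0399 and 0.0418), while Birc5 did not pass (log2 fold change −2.50, adjusted p = 0.0724 with the block).

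Cenpa, Cenpf, Knstrn and Spag5 showed the same order of groups. Cenpa had 146, 592 and 691 in H2O2 libraries, against 1508, 1599 and 2136 in vehicle libraries. Cenpf had 159, 771 and 773 in H2O2 libraries, against 1063, 1491 and 2034 in vehicle libraries. In both genes every H2O2 library lay below every vehicle library. Knstrn had 131, 421 and 691 in H2O2 libraries, against 1352, 1519 and 1875 in vehicle libraries. Spag5 had 198, 591 and 351 in H2O2 libraries, against 1054, 1253 and 1002 in vehicle libraries. These 4 genes had log2 fold changes of −1.67 to −2.21 with adjusted p-values of 0.0551 to 0.138, and all 4 fell with the block (adjusted p = 0.0285 to 0.0391).

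The 4 genes that CLEAR did not keep at 100 pg were Nsl1, Bub1b, Ttk and Sgol1. In the unfiltered table Bub1b had 4.30, 486 and 629 normalized counts in H2O2 libraries, against 959, 2088 and 1749 in vehicle libraries. Sgol1 had 0, 178 and 184 in H2O2 libraries, against 254, 359.9 and 435 in vehicle libraries. Nsl1 was likewise at 0 in H2O2 F5 alone, and Ttk had 2.15 there. In all 4 genes H2O2 F5 was the lowest of the 6 libraries. Ska1 was at 0 in H2O2 F5 as well and was in the CLEAR table.

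**Figure D3:**
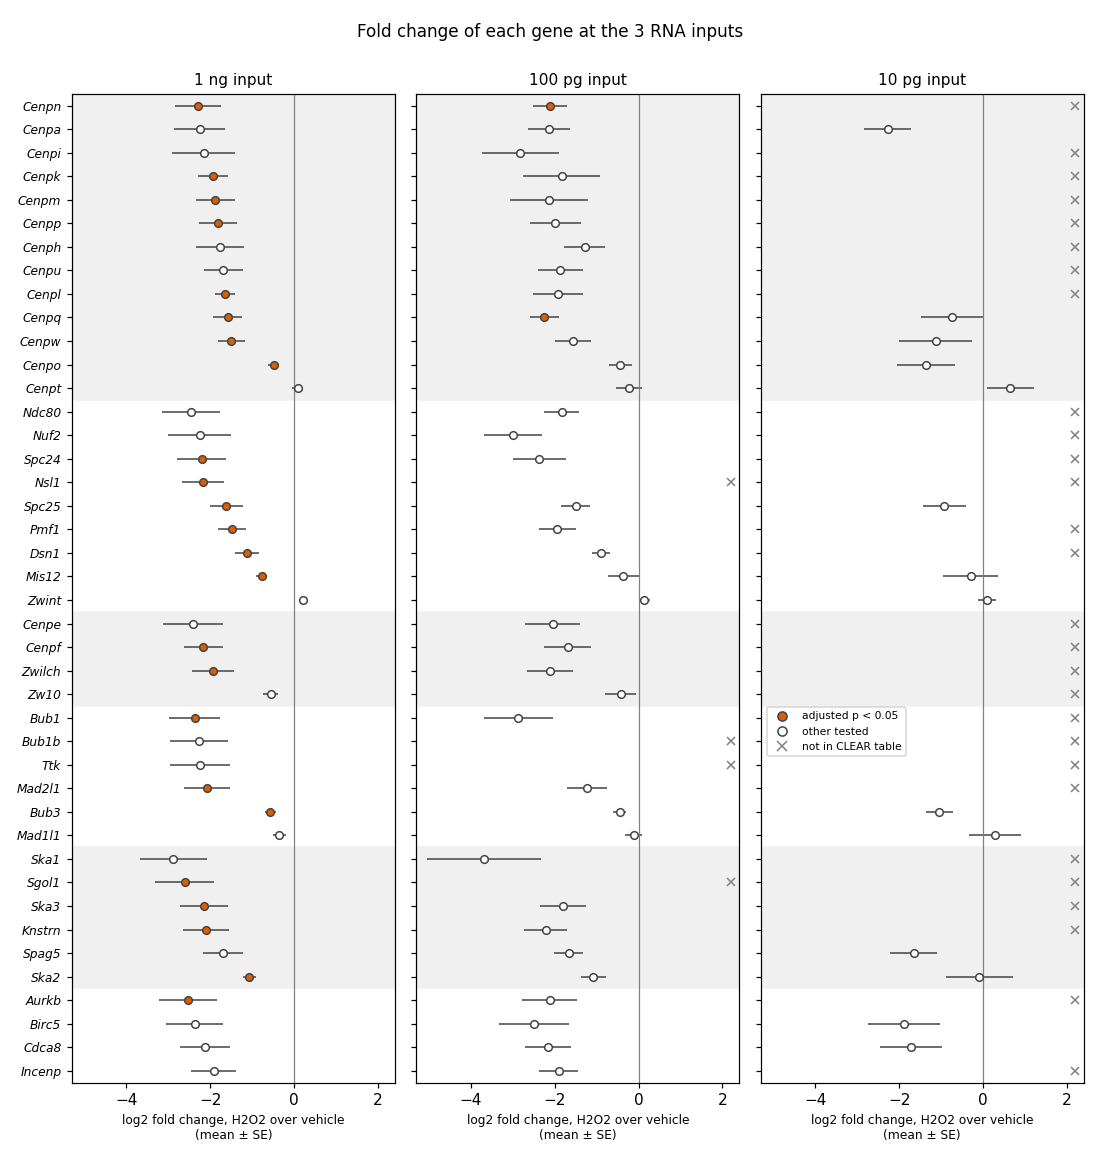
Log2 fold change of H2O2 over vehicle (point) with its SE (bar) for each of the 42 genes at 1 ng, 100 pg and 10 pg, filled where the adjusted p was under 0.05 and with a cross where the CLEAR table did not hold the gene. Filled points number 24 at 1 ng, 2 at 100 pg and 0 at 10 pg.

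At 10 pg 0 of the 14 genes in the CLEAR table passed the test in either direction. This applied to all genes, as limma called 0.0% of 6356 tested genes lower and 0.0% higher, 0.0% lower with the culture as a block and 0.0% lower without the H2O2 library of F5. The median log2 fold change of the 14 genes was −0.98, against 0.02 over all tested genes, and 11 of 14 were negative. At an unadjusted p under 0.05 4 of the 14 genes were counted, against 646 of all 6356, edgeR called 0, and DESeq2 called 1 lower, Cenpa (0.865% of all tested genes). The groups did not overlap for 4 of the 14 genes, which held for 8.43% of all tested genes.

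Those 4 genes were Cenpa, Cenpo, Bub3 and Spag5. Cenpa had 187, 280.2 and 769 normalized counts at 10 pg in H2O2 libraries, against 1770.2, 1396 and 1857 in vehicle libraries (log2 fold change −2.27, SE 0.57, adjusted p = 0.324, and 0.0311 by DESeq2). Bub3 had 1447, 2044 and 1084 in H2O2 libraries, against 3613, 3017 and 2553 in vehicle libraries (−1.04, SE 0.32, adjusted p = 0.347). Spag5 had 792, 266 and 661 in H2O2 libraries, against 2371, 936 and 1979 in vehicle libraries (−1.66, SE 0.55, adjusted p = 0.370). In Bub3 and Spag5 H2O2 F5 was not the lowest library. Cenpo had 79.0, 328 and 259 in H2O2 libraries, against 425, 431 and 621 in vehicle libraries (−1.36, SE 0.69).

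The other genes that stayed in the table at 10 pg had overlapping groups. Cdca8 had 176, 703 and 1728 in H2O2 libraries, against 1413, 1899.9 and 2834 in vehicle libraries. Spc25 had 503, 692 and 456 in H2O2 libraries, against 632, 1957 and 870.3 in vehicle libraries. Only the highest H2O2 library of each reached the vehicle range. Mad1l1 had 609, 1402 and 1276 in H2O2 libraries, against 939, 1789 and 356 in vehicle libraries. Cenpt had 569, 776 and 398 in H2O2 libraries, against 218, 542 and 380.1 in vehicle libraries, and Zwint had 6940.2, 5299 and 7710.0 in H2O2 libraries, against 7243, 5953 and 5435 in vehicle libraries. These last 3 genes had positive log2 fold changes, of 0.29 for Mad1l1 (SE 0.63), 0.66 for Cenpt (SE 0.57) and 0.09 for Zwint (SE 0.22), with adjusted p-values of 0.717 to 0.912. Cenpq, Cenpw, Mis12, Ska2 and Birc5 had log2 fold changes between −1.89 and −0.08.

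The remaining 28 genes were not in the CLEAR table at 10 pg, and in the unfiltered table they were often missing from single libraries. At most 3 reads were found for 20 of the 42 genes in H2O2 F5, for 11 in H2O2 F8 and for 6 in H2O2 M9. In vehicle libraries of the same cultures this held for 4, 3 and 1 genes. At 1 ng no library held 3 or fewer reads of any of the 42 genes, and at 100 pg only H2O2 F5 did, for 4 genes. Of the 28 genes 26 had such a value in at least 1 H2O2 library and 6 in at least 1 vehicle library. For Incenp the values were 0, 975 and 1219 normalized counts in H2O2 libraries, against 2923, 1819.6 and 2336 in vehicle libraries. For Bub1b they were 2.14, 0.989 and 367 in H2O2 libraries, against 1836, 3181 and 3092 in vehicle libraries. Losses also struck vehicle libraries, as Ndc80 had 257, 0 and 191 in H2O2 libraries, against 1.77, 0 and 1188 in vehicle libraries, and Cenpu was at 0 in vehicle F5 and F8. The 28 genes had a median vehicle level of 486 at 1 ng and a median log2 fold change there of −2.15. The 14 genes that were kept had medians of 888 and −1.28, and the ranges of both sets overlapped, as Cenpw and Cenpa were kept and Incenp and Zw10 were not.

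**Figure D4:**
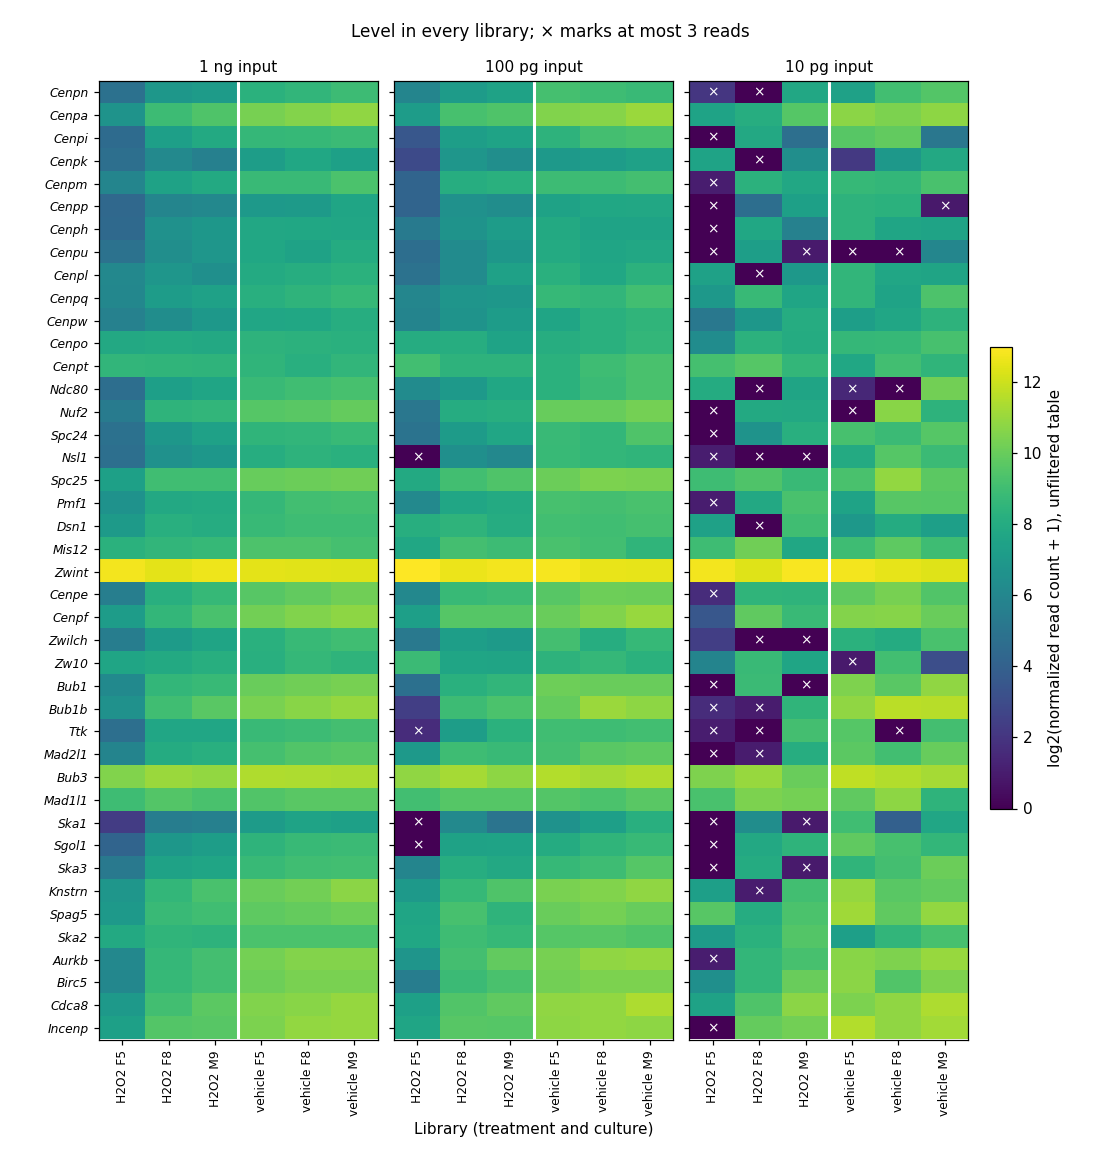
Level of the 42 genes in every library as log2(normalized read count + 1) from the unfiltered tables, with H2O2 libraries left of vehicle libraries at each input and a cross where a library held at most 3 reads of the gene. Crosses number 0 at 1 ng, 4 at 100 pg (all in H2O2 F5) and 45 at 10 pg (37 in H2O2 and 8 in vehicle libraries).

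While single genes were lost at low input, their sum was not. Together the 41 genes other than Zwint took 498, 1198 and 1431 of each 1000000 reads in H2O2 libraries of F5, F8 and M9 at 1 ng, against 2550.3, 2898 and 3281 in vehicle libraries. At 100 pg they took 527, 1278 and 1362 in H2O2 libraries, against 2532, 2831 and 3220.0 in vehicle libraries. At 10 pg they took 542, 1292 and 1519.8 in H2O2 libraries, against 3130, 3134 and 3444 in vehicle libraries. The groups were separate at every input, and H2O2 F5 was the lowest and H2O2 M9 the highest of the H2O2 libraries each time. As a share of the vehicle library of the same culture, the H2O2 sum came to 19.5% for F5, 41.3% for F8 and 43.6% for M9 at 1 ng, 20.8%, 45.1% and 42.3% at 100 pg, and 17.3%, 41.2% and 44.1% at 10 pg. With Zwint included the share was 36.5% for F5, 50.2% for F8 and 53.9% for M9 at 1 ng. It was 37.0%, 54.0% and 52.1% at 100 pg, and 30.2%, 48.0% and 56.1% at 10 pg.

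The sum of the 4 passenger complex genes in H2O2 F5 was 7.82% of that in vehicle F5 at 1 ng and 7.92% at 100 pg, the lowest of the 6 layers. At 10 pg it was 3.20%, next to 2.45% for the corona and motor genes. In F8 the passenger complex sum was 31.4%, 34.9% and 41.03% of vehicle at the 3 inputs, and in M9 39.0%, 39.8% and 51.2%. In F8 at 1 ng the corona and motor genes had the lowest share (31.1%). The outer kinetochore genes, Zwint among them, were at 74.6% in F5, 73.4% in F8 and 83.5% in M9 at 1 ng. In F5 the inner kinetochore genes were at 22.7%, 22.9% and 23.6% and the spindle checkpoint genes at 30.9%, 35.2% and 20.4%. Zwint alone took 582 ± 59.3 of each 1000000 reads in H2O2 libraries and 515 ± 15.8 in vehicle libraries at 1 ng (SD, n = 3 each), and at 10 pg 586.5 ± 112 in H2O2 and 563 ± 81.5 in vehicle libraries. The sums were taken over members chosen with their direction known and were not tested. Libraries of 1 culture at the 3 inputs share their RNA.

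**Figure D5:**
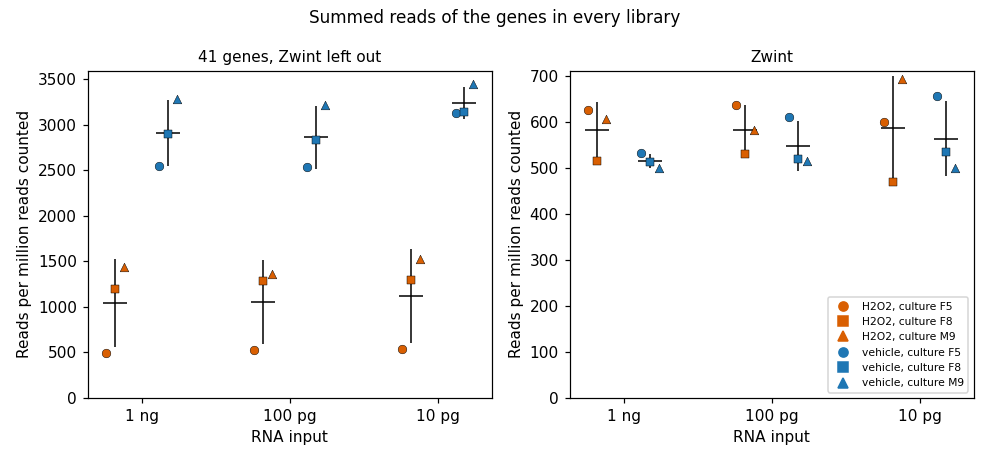
Reads per 1000000 reads of a library assigned to the 41 genes other than Zwint (left) and on Zwint (right), in H2O2 (orange) and vehicle (blue) libraries of each input, with the mean and SD of 3 libraries as a dash and a line. H2O2 libraries hold 498 to 1519.8 such reads of the 41 genes at the 3 inputs and vehicle libraries 2532 to 3444, while the groups overlap for Zwint.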

How the data were processed

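RNA of 3 cultures per treatment was sequenced at 3 inputs. According to the study's methods, the authors trimmed and filtered the reads, aligned them with HISAT2 (2.0.6 in the submitters' processing notes) to GRCm38 and counted them per gene without strand with featureCounts. The processing notes also name CASAVA 1.8.2 and the human build GRCh38, although the symbols are of mouse. The authors deposited a signal, the normalized count, made by dividing each library's counts by its own size factor. Size factors were set table by table, so each input was analysed on its own. Dividing by the smallest step of a library gave whole reads for 100% of values (within 1e-08). Columns were assigned by the culture, treatment and input in their headers, and the labels speak of cultures of both sexes without naming them. Replicates are cultures, of which F5 and F8 may share a line. PCR reads are not independent molecules, and a limit of 3 reads covers counting error only.

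For the comparison of H2O2 with vehicle, log2(normalized count + 1) was fitted in R 4.3.3 with limma 3.58.1 and moderated with a trend on the mean (two-sided test), over all genes of the CLEAR table above 0 in at least 1 library, with Benjamini-Hochberg adjustment and a threshold of 0.05. The study's own tool, DESeq2 (1.42.0), and edgeR (4.0.16) were run on the recovered reads. Adding 1 shrinks the fold changes of low genes, yet the median fall of the 42 genes was larger by limma than by these tools. At 1 ng the median log2 fold change was −1.94 by limma, −1.71 by DESeq2 and −1.72 by edgeR. For Ska1 it was −2.88, −2.35 and −2.36. At 1 ng the deviations from the group means of same-culture libraries correlated across genes (r = 0.122 in F5, 0.101 in F8, 0.341 in M9), so the fit with the culture as a block is given beside the one without it. F5 against F8 reached 0.0962, and same-culture values were 0.0262 to 0.170 at 100 pg and −0.0293 to 0.0341 at 10 pg, where the pairing rests on the shared RNA alone. Other alternatives were pseudocounts of 0.5 and 8, a mean of at least 10, the unfiltered table, no mean trend and leaving out libraries or cultures. Limma, edgeR and DESeq2 fits were also run on counts simulated from the 1 ng means, with the same dispersion in both groups and no culture effect. The simulation lacked the wide H2O2 spread of these genes and the losses at 10 pg, so it cannot check the fits for them. Per-gene values were printed for the 2 most abundant genes of each layer and for those with the 4 most negative and 6 least negative fold changes at 1 ng, then for at most 10 of them at each lower input, and for the 4 genes of smallest adjusted p in each partner list, of which 1 is not reported here. Cenpn, Cenpq and the genes lost at low input were added after their values were seen. The members and lists were chosen with earlier results of these data known. Coordinates and exon lengths came from GENCODE M21 (GRCm38), a later release than that used for counting, and promoters from RefSeq (GRCm38.p6). Tables were handled with Python 3.11.15.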

Additional observations from a re-analysis of the deposited data

How the results depend on the processing

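In every fit 0 of these genes rose past the threshold, but the number that fell varied. At 10 pg 9 to 12 of the 14 genes had a negative log2 fold change, depending on the fit. At 1 ng, 24 of 42 genes fell, with 21 to 26 under edgeR, pseudocounts of 0.5 and 8, a mean of at least 10 or the unfiltered table, and 32 under DESeq2. Over all tested genes the main fit called 973 lower, DESeq2 1463 and the others 858 to 1015. These fits tested 13692 genes, but 12454 with a mean of at least 10 and 22672 in the unfiltered table. The count was 37 with the replicate block and 0 without a mean trend, where 1 of all 13692 genes fell. Leaving out 1 library or both libraries of 1 culture gave 0 to 37, and 0 to 986 over all tested genes. With the replicate block and both libraries of a culture left out it was 38 without F5, 26 without F8 and 29 without M9. Over all tested genes these fits called 1631 of 13618, 521 of 13630 and 325 of 13627 lower. In fits chosen after the data were seen, DESeq2 called 38 without H2O2 F5 and 37 with the block. Among all tested genes it called 1218 of 13652 and 1337 of 13692 lower. At 100 pg, 2 of 38 genes fell, against 21 by DESeq2, 15 with the replicate block and 1 with a pseudocount of 8. The count was 0 of 42 in the unfiltered table and 0 of 38 without a mean trend. Over all tested genes these fits called 103, 610, 279, 81, 5 and 0 lower, of 12171 genes, but of 22407 in the unfiltered table. Leaving out libraries gave 0 to 13 (0 to 205 of all tested genes). With the block and a culture left out it was 23 without F5, 6 without F8 and 12 without M9. Of all tested genes 603 of 12091, 91 of 12100 and 152 of 12092 fell in those fits. DESeq2 called 28 without H2O2 F5 and 26 with the block, and 558 of 12139 and 722 of 12171 among all tested genes. At 10 pg, 0 of 14 fell in every limma and edgeR fit, against 1 by DESeq2 and 3 by DESeq2 with the block. Among all 6356 tested genes DESeq2 called 55 lower, and 106 with the block. The causes were not tested. Where limma called 0 of these genes without a vehicle library, it called 0 genes of any kind at 1 ng and at 100 pg.

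Among the genes given in every library, the sign turned in 3 whose change did not pass the test. Ska2 at 10 pg (−0.08) was also positive under DESeq2 and edgeR (0.04 in both), and at 100 pg 35 genes, against 37, were negative without H2O2 F5. Cenpt at 1 ng (0.08) was at −0.027 without vehicle F8 and −0.0097 without both libraries of F8, with or without the paired block, and otherwise at up to 0.16 with libraries left out. At 10 pg Zwint (0.09) was at −0.02 without H2O2 M9 and −0.11 without both libraries of M9, and Mad1l1 (0.29) at −0.33 without vehicle M9 and −0.49 without both libraries of M9, the last of each with or without the block. With other libraries left out they reached 0.25 and 0.83. There were 3 cultures per group, of which 2 may share a line. At most 3 reads were found in 45 of 252 values at 10 pg and 0 of 252 at 1 ng, although the libraries were about as deep.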
